A study of Schizosaccharomyces pombe with 8 samples.

Results

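The paralogous genes mfs2 (systematic name SPAC11D3.05) and SPBC530.02 of the fission yeast Schizosaccharomyces pombe were the 2 members described here, of 166 genes that a Pac1-TAP peak list pairs with a peak. They were taken by name from the list, and the study had singled them out with the values of these data in view, so their peaks were the values they were chosen by. Peak positions are therefore given as a description, with no test.

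Pac1-TAP chromatin immunoprecipitation sequencing (ChIP-seq) was used to ask where on chromatin Pac1 sits. The 2 Pac1-TAP immunoprecipitates and the 2 matching inputs came from strain FBY2277, grown in Edinburgh minimal medium (EMM) at 30 °C. Its genotype is h+ with the marker alleles ade6-M216, leu1-32 and ura4-D18, the allele his3-D1, and Pac1-TAP-natMX6 as the tagged gene. All 4 libraries therefore carried the tagged Pac1, and the labels name no untagged strain. Both replicates had been merged into 1 list with 1 p-value per peak, so no value below has a replicate error, and the read depth behind each peak is unknown.

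Pac1 is an RNase III endonuclease, an enzyme that cuts double-stranded RNA such as the stem of a hairpin. RNase III enzymes are known for trimming precursors of ribosomal, spliceosomal and nucleolar RNAs, and a cut in a nascent transcript opens an unprotected end to exonucleases. The proteins of mfs2 and SPBC530.02 belong to the major facilitator superfamily, membrane carriers that move small solutes across a lipid bilayer.

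Both transcripts have a predicted stem-loop near the start of the coding sequence, and the segments are shown first because the peaks lie over them. The stem of mfs2 is the most-paired one in its coding sequence. That of SPBC530.02 is the most-paired one that overlaps the aligned segment, so its matching position was set by this choice. Over its whole coding sequence the most-paired stem of SPBC530.02 was another one, given below. Sequences and structures are from the RefSeq genome, build ASM294v3, plus strand, written as DNA, with bases paired in the predicted structure in capitals.
mfs2 stem-loop, I:114182-114271: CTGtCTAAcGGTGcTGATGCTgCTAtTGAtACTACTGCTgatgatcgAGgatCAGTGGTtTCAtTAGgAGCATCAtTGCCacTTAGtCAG
SPBC530.02 stem-loop, II:787785-787848: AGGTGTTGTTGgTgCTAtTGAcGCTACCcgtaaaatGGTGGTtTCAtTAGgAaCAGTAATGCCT

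The mfs2 stem-loop spanned 90 bases (coding bases 103 to 192) with 33 pairs, 14 of them G-C, 16 A-T and 3 G-T. The SPBC530.02 stem-loop spanned 64 bases (coding bases 108 to 171) with 24 pairs, 8 of them G-C, 10 A-T and 6 G-T. Each ended in a loop of 8 bases. Folded alone at 37 °C, the segments had predicted energies of -36.1 kcal/mol in mfs2 and -23.2 kcal/mol in SPBC530.02. The stem of mfs2 was thus longer and richer in G-C pairs than that of its paralog.

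The same segments are repeated with capitals at the bases that are identical in the paralog, which shows how the shared bases are spread over both arms of the stem.
mfs2 stem-loop: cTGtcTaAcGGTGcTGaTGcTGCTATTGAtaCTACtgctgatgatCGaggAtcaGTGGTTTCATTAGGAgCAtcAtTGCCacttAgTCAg
SPBC530.02 stem-loop: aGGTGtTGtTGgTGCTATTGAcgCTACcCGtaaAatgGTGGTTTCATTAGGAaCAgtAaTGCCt

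Of the 90 bases in mfs2, 54 (60.0%) were identical, and of the 64 bases in SPBC530.02, 46 (71.9%) were. Of the 33 pairs of the mfs2 stem, 30 had both bases aligned with a base of SPBC530.02. In 21 of these 30 pairs both bases were the same in the paralog. A further 2 pairs had 1 base replaced and 4 had both bases replaced in such a way that the aligned bases can still pair. The remaining 3 could not pair. In the predicted SPBC530.02 structure, 22 of the 30 aligned pairs were formed between the aligned bases themselves.

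The peak at mfs2 (I:114114-115228 in build ASM294v2, plus strand) was 1115 bp wide. Counted from the listed 5′ end of the gene (I:113950-115962, 2013 bp), it ran over bases 165 to 1279, or 8.15% to 63.5% of the gene length. It covered 55.4% of the gene, its centre lay at 35.8% of the length, and 734 bp of the gene lay beyond it. The whole peak fell inside the single-exon coding sequence of 1641 nt, over coding bases 35 to 1149, which correspond to codons 12 to 383 of a protein of 546 residues. It left out 34 coding bases at the start and 492 at the end, and so covered 68.0% of the coding sequence.

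The peak at SPBC530.02 (II:787607-788430 in build ASM294v2, plus strand) was narrower, with 824 bp. It began 71 bp upstream of the listed gene start (II:787678-789529, 1852 bp) and ended at base 753, or 40.7% of the gene length. It covered 40.7% of the gene, its centre lay at 18.4% of the length, and 1099 bp of the gene lay beyond it. The listed gene start was also the first base of the single-exon coding sequence of 1626 nt, so the peak ended in codon 251 of a protein of 541 residues. It covered 46.3% of the coding sequence and left out the last 873 coding bases.

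Both peaks thus lay over the 5′ part of the gene and stopped well inside the coding sequence, but at different places. Measured from the first coding base, the mfs2 peak began 105 bp later and ended 396 bp later than the SPBC530.02 peak. The peak at mfs2 was 291 bp wider, and the peak centres were 250.5 bp apart. After alignment of the coding sequences, the end of the SPBC530.02 peak corresponded to coding base 774 of mfs2, which is 375 bp before the end of the mfs2 peak. With a single list for both replicates, it cannot be said whether these distances exceed the spread between replicates. Part of the difference counted from the gene starts came from the annotation: the listed mfs2 start lay 130 bp before the coding sequence, while that of SPBC530.02 lay at its first base.

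The stem-loops lay inside both peaks. That of mfs2 began 68 bp after the peak start and ended 957 bp before the peak end, so that its middle stood at 10.1% of the peak width. That of SPBC530.02 began 178 bp after the peak start and ended 582 bp before the peak end, with its middle at 25.5% of the peak width. In both genes the stem-loop was therefore in the 5′ part of the peak, and most of the peak lay downstream of it.

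**Figure D1:**
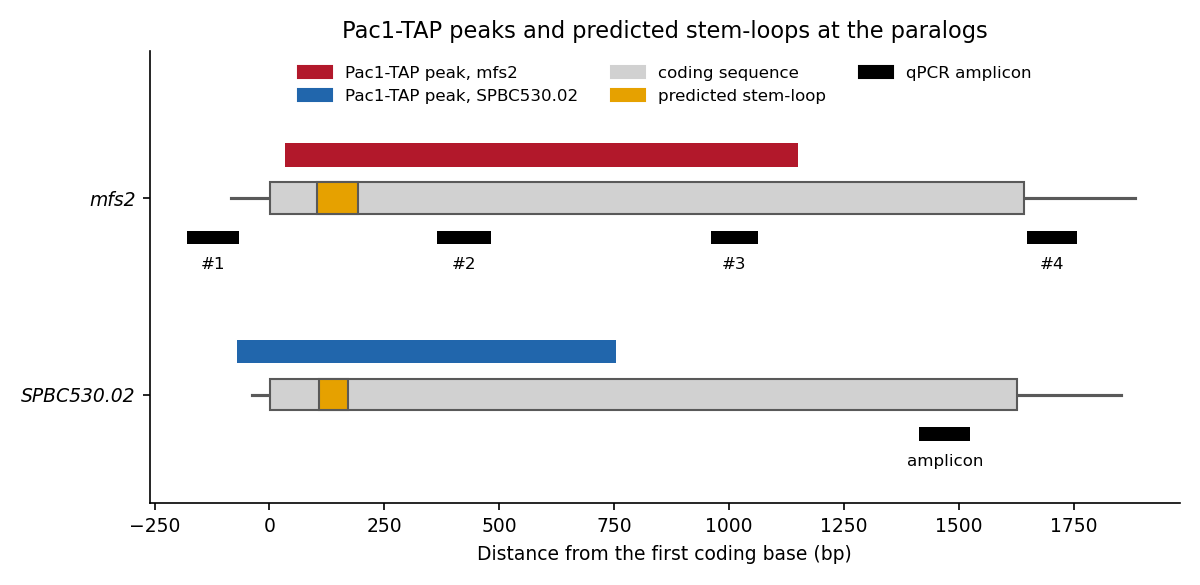
Map of mfs2 (top) and SPBC530.02 (bottom), with the distance from the first coding base in bp on the x axis. Coloured bars above each gene are the Pac1-TAP peaks (coding bases 35 to 1149 in mfs2, and from 71 bp upstream to base 753 in SPBC530.02), grey boxes the coding sequences, grey lines the rest of the reference gene, yellow boxes the predicted stem-loops and black bars the qPCR amplicons of the study.

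Both peaks belonged to the 34 of 88 with a listed p-value of 0, so the p-value does not order them among these. The narrowest peak of the list was 545 bp, the median 1378.5 bp and the widest 5433 bp. The peak of mfs2 was the 34th narrowest and that of SPBC530.02 the 18th narrowest of the 88, and both were below the median width.

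The covered share was next set beside all 102 pairs of a protein-coding gene with a peak (98 genes). The share of mfs2 ranked 47 from the lowest and that of SPBC530.02 ranked 41, in a distribution that ran from 0.08% to 100% with a median of 68.0%. Of the 46 pairs below mfs2, 33 had the peak centre outside the gene. Among the 23 pairs whose peak had 1 listed gene, SPBC530.02 ranked 3 from the lowest, above bdf2 (35.6%) and seb1 (36.8%), and the median share of these pairs was 92.4%. Among the 65 pairs whose peak centre lay inside the gene, mfs2 ranked 14 and SPBC530.02 ranked 8 from the lowest, with a median of 95.2%. Partial cover was therefore in the lower part of the range for genes that hold the peak centre, and not at its edge.

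A peak centred between the 5′ end and the midpoint of the gene that ended before the 3′ end was found at 19 of the 102 pairs (18.6%), both members included. Ordered by where the peak ended in percent of gene length, SPBC530.02 was the second of these 19 after seb1 (38.5%), and mfs2 was the eighth at 63.5%. The peak bounds of the members averaged 2.16% and 52.1% of gene length for start and end. The 3 protein-coding genes nearest to this average were pfl2, hmt2 and gas1. The peak of pfl2, a flocculin of the cell surface, ran over 0.46% to 52.7% of its gene. That of hmt2, a sulfide-quinone oxidoreductase, ran over 2.72% to 48.6%, and that of gas1, a predicted cell wall glucanosyltransferase, over 0.72% to 44.3%. These genes lay closer to the members' average (1.79, 3.58 and 7.91 percentage points) than the members did themselves (12.9 points each). Their listed p-values were 5.92e-162 for pfl2, 9.75e-59 for hmt2, the largest of the list, and 6.61e-211 for gas1, against 0 for both members. The layout of the peak was thus shared with genes that encode other kinds of protein.

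The peak of seb1, which encodes an RNA-binding protein, ran over bases 41 to 908 of 2361 (listed p-value 1.46e-107), like that of SPBC530.02 at the very start of the gene. The peak of bdf2, which encodes a double bromodomain protein, ran over bases 1563 to 3359 of 5048 (listed p-value 8.83e-188), and unlike the members it left the first 30.9% of the gene out.

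**Figure D2:**
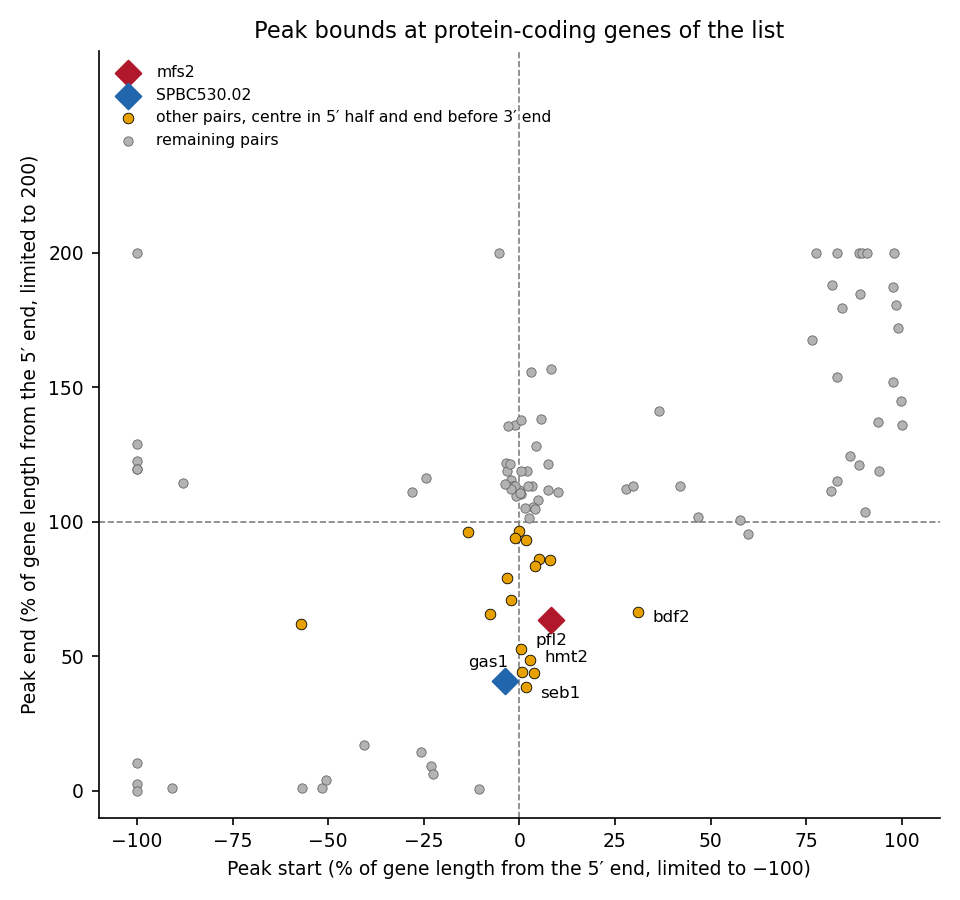
Peak start (x axis) and peak end (y axis) in percent of gene length from the 5′ end, for the 102 pairs of a protein-coding gene with a peak, with values limited to -100 and 200. Diamonds are mfs2 (8.15%, 63.5%) and SPBC530.02 (-3.83%, 40.7%), yellow points the other pairs with the centre on the 5′ side of the gene midpoint and the end before the 3′ end, grey points the rest; dashed lines mark the 5′ and 3′ ends of the gene.

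The genes on the opposite strand differed between the paralogs. At mfs2 the list paired the same peak with SPAC11D3.04c on the minus strand, whose product holds a SnoaL-like polyketide cyclase domain. As listed, SPAC11D3.04c was 1932 bp long, overlapped the mfs2 gene by 496 bp and the peak by 332 bp, and had 17.2% of its length in the peak. In the ASM294v3 annotation the same gene was 824 bp long, since 1108 bp at its 5′ end were gone, and lay 776 bp away from the peak. The opposite-strand partner of mfs2 in the list thus rested on a long 5′ end of the older annotation. The newer annotation had another transcript there, the long non-coding RNA SPNCRNA.2054 on the minus strand, 719 bp long and wholly inside the mfs2 gene. It overlapped the 3′ part of the mfs2 peak by 231 bp, or 32.1% of the RNA, and it did not reach the stem-loop.

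At SPBC530.02 no other gene was listed for the peak, and none of the newer annotation overlapped it. The nearest were the minus-strand RNA SPNCRNA.4878, with a gap of 244 bp, and gyp1, which encodes a GTPase-activating protein on the same strand, with a gap of 461 bp. ChIP-seq does not tell the strands apart, so the peak list alone cannot assign the signal over mfs2 to one of them. Of the 72 peaks with a protein-coding gene, 18 were listed with protein-coding genes on both strands.

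The study's qPCR amplicons can be placed beside the peak bounds. The primers of the amplicons that lie inside the mfs2 peak, and of the one in SPBC530.02, are printed 5′ to 3′ as given in the study's oligonucleotide table.
mfs2 #2 forward: gcctctagtgtgtattctagcg
mfs2 #2 reverse: gcaaagacccaacaccaaacc
mfs2 #3 forward: tgcaatgattcaggcagctactc
mfs2 #3 reverse: gtagttaatgatgtacaccacagtc
SPBC530.02 forward: gctgcaagtgctttagctgc
SPBC530.02 reverse: actagttgcccaatggtctcc

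Amplicon #2 (I:114443-114560 in ASM294v3, coding bases 364 to 481) lay downstream of the stem-loop and inside the peak. Amplicon #3 (I:115039-115141, coding bases 960 to 1062) lay inside the peak with its last base 87 bp before the peak end. Amplicon #1 ended 101 bp before the peak start, and amplicon #4 began 498 bp after the peak end. The amplicon of SPBC530.02 (II:789091-789201, coding bases 1414 to 1524) began 660 bp after the end of that gene's peak, and so in a stretch that the peak did not cover. The template used in the study to transcribe the mfs2 stem-loop in vitro matched coding bases 57 to 247 and lay wholly inside the peak.

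The list held 8 genes whose description names a transporter, permease or P-type pump, in 9 of the 102 protein-coding pairs; bsu1, described as an import carrier, is given with the relatives. Of these, thi9, which carries thiamine, had a peak that reached only its first 41 bp (1.22% of the gene) and another over 70.3% of it. The peak over pma1, the plasma membrane proton pump, covered 96.4% of the gene. SPCC794.03, a predicted amino acid permease, was covered to 96.6%, and mfs3, of the same superfamily as mfs2, to 97.5%. The phosphate carrier pho84 and the zinc carrier zrt1 were covered to 100%. Among these 9 pairs mfs2 and SPBC530.02 were therefore, after the touched end of thi9, the ones with the lowest covered shares. A peak that stopped before the 3′ end was also found at the touched end of thi9 and at pma1 and, outside these 9 pairs, at bsu1.

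The members' own family was then taken from protein sequence. The paralogs shared 361 of 539 aligned residues (67.0%). With either as query, blastp found 18 other proteins of S. pombe at an E-value of at most 1e-20. Of these 18 genes, mfs3 and bsu1, which is annotated as a vitamin B6 carrier, were in the list (2 of 18, 11.1%), against 95 of all 5113 protein-coding genes (1.86%). The peaks covered 97.5% of mfs3, past its 3′ end, and 81.2% of bsu1. The peak of bsu1, like those of the members, belonged to the 19 pairs centred on the 5′ side that stopped before the 3′ end, although it stopped later, at 86.3% of the gene length. The closest relative of both members, SPCC794.04c (46.2% identical to mfs2 and 49.2% to SPBC530.02), had no peak, nor had the next by bit score, SPBC409.08 and SPCC569.05c.

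The relatives were also compared at the place of the stem-loop. In 11 of the 18, at least 20 of the 30 residues encoded by the mfs2 stem-loop could be aligned. The most-paired stem that overlapped that segment, in some genes only at its edge, had between 11 and 21 pairs over all 11 genes. It had 15 pairs in SPCC794.04c, 18 in SPBC409.08 and 20 in SPCC569.05c, beside 33 in mfs2 and 24 in SPBC530.02. The segment was chosen for holding the most-paired stem of mfs2, so the higher count in mfs2 cannot be read as a difference from the relatives. At 30 °C, the growth temperature, the same mfs2 stem counted 24 pairs, and no counts at 30 °C are given for the relatives. Of the 30 residues, 5 were identical between mfs2 and SPCC794.04c, and over the 11 genes the number ran from 2 in bsu1 to 11 in SPCC569.05c. Over the whole coding sequence, the most-paired stem of 3 of the 18 relatives had at least as many pairs as that of mfs2. None of these 3 stems began in the first 200 coding bases. In 4 relatives the lowest folding energy was at or below that of mfs2.

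Averaged over each zone, nucleotide identity of the coding sequences was lower under the peaks than downstream of them. It was 63.7% (457 of 718 aligned bases) where both peaks lay, 67.2% (252 of 375) where only the mfs2 peak lay, and 71.8% (353 of 492) downstream of both. The amino acid identity followed the same order, with 60.8% of 240 codons, 69.6% of 125 and 74.8% of 163. It was uneven under both peaks, in windows of 27 aligned codons. The window at coding bases 37 to 120 of mfs2 had 14.8%, and that at coding bases 682 to 762 had 92.6%. The lower average under both peaks therefore did not hold over the whole of that stretch.

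At the stem-loop the wobble bases, the third of each codon, were more often identical than in the rest under both peaks. Wobble bases can mostly be exchanged without a change of the amino acid. In the 27 aligned codons of the mfs2 stem-loop, 19 wobble bases (70.4%) were identical between the paralogs, although only 14 of the 27 amino acids (51.9%) were. In the other 213 codons under both peaks, 82 wobble bases (38.5%) were identical, and 132 of the amino acids (62.0%). The difference was smaller among codons with the same amino acid in both genes. Of these, 8 of 14 (57.1%) at the stem-loop were the same codon, and 55 of 132 (41.7%) in the rest under both peaks. The first and second bases of the codons were less often identical at the stem-loop (63.0% and 66.7%) than in that rest (68.5% and 80.3%). Over the 539 aligned codons the share of identical wobble bases was 42.3%. Windows of 27 aligned codons, moved along the whole alignment, had between 14.8% and 74.1% identical wobble bases with a median of 40.7%. The highest window covered coding bases 112 to 201. In the 460 of 513 windows that held no base of the stem-loop the highest value was 63.0%. Neighbouring windows overlap and codons of 1 gene pair are not replicates, so these values carry no test.

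**Figure D3:**
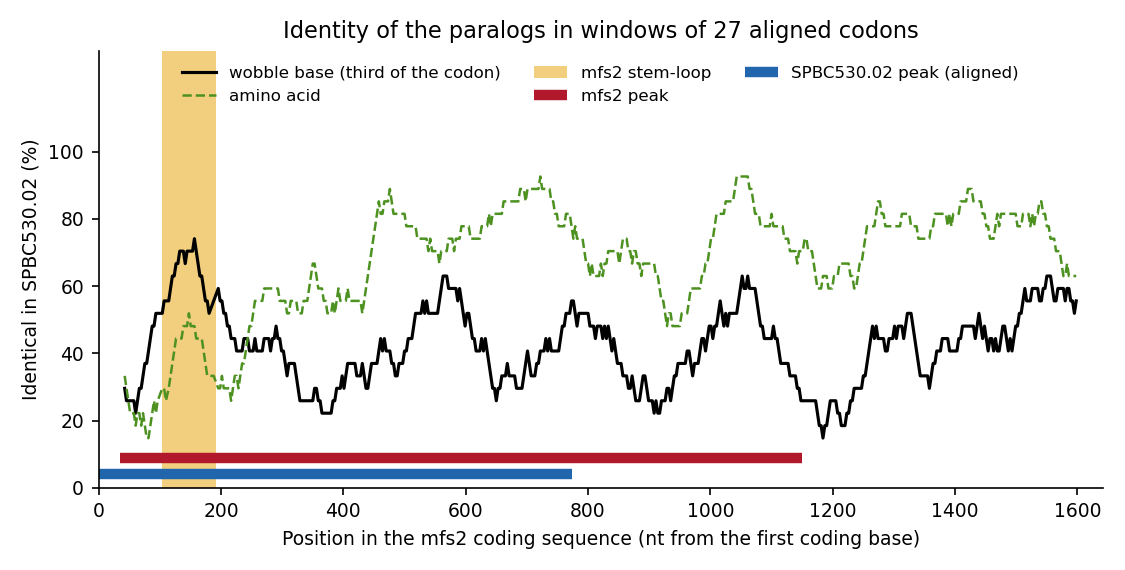
Percent of wobble bases, the third of each codon (black), and of amino acids (green, dashed) that were identical between mfs2 and SPBC530.02 in windows of 27 aligned codons, against the position in the mfs2 coding sequence in nt. The yellow band is the mfs2 stem-loop, and the bars at the bottom are the peaks; wobble-base identity reached 74.1% at the stem-loop and stayed at or below 63.0% in windows without its bases.

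To see how common such structures are, the coding sequences of all 5113 protein-coding genes were folded locally, with pairs at most 150 nt apart. The lowest energy in mfs2 was -51.2 kcal/mol at coding bases 56 to 201, inside the peak and around the stem-loop, and it ranked 155 from the lowest (the lowest 3.0% of genes, median -40.1 kcal/mol). The lowest in SPBC530.02 was -43.6 kcal/mol at coding bases 1374 to 1510, outside its peak, and ranked 1380 (27.0%). This place changed with the setting: at 30 °C the lowest structure of SPBC530.02 (-51.7 kcal/mol) lay at coding bases 68 to 212, and with a span of 100 nt (-32.3 kcal/mol) at coding bases 96 to 187, both around the stem-loop and inside the peak. The structure around the SPBC530.02 stem-loop came close to it, with -43.0 kcal/mol at coding bases 68 to 212.

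Counted in pairs of the most-paired stem, mfs2 with 33 ranked 152, and 198 of the 5113 genes (3.87%) had at least as many, mfs2 included. These ranks depend on the folding settings: with a span of 200 nt the energy of mfs2 ranked 873 (17.1%), and at 30 °C, the growth temperature, the same stem counted 24 pairs without a longer interruption and ranked 1767 (34.6%), while its energy ranked 172 (3.4%). In 29 genes (0.567%) such a stem began within the first 200 coding bases. The number was 17 in pfl2, 21 in hmt2 and 24 in gas1, the nearest genes in peak bounds, and 23 in bdf2 and 27 in seb1, beside a median of 22 over all genes. Among the 95 listed protein-coding genes the median was 23. Of these 95, 9 (9.47%), mfs2 included, had at least as many pairs as mfs2. The most-paired stem in SPBC530.02, with 32 pairs, was not the one shared with mfs2. At 30 °C the most-paired stem was another one again, with 29 pairs at coding bases 284 to 417, inside the peak. The stem of 32 pairs is shown because it lies across the end of the peak, with 32 of its 81 bases inside and 49 outside, capitals again marking paired bases.
SPBC530.02, II:788399-788479 in ASM294v3, coding bases 722 to 802: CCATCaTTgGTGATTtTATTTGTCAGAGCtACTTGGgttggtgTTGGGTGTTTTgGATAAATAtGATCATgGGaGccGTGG

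Folded alone, that segment had a predicted energy of -21.5 kcal/mol, and the aligned mfs2 segment (coding bases 743 to 823) had -11.3 kcal/mol. The segments were identical at 56 of 81 bases (69.1%). On the opposite strand the predicted structure of the members was weaker. The lowest energies were -37.2 kcal/mol in mfs2 and -37.9 kcal/mol in SPBC530.02, on the weaker side of the median of -39.0 kcal/mol. The most-paired stem of that strand had 19 pairs in mfs2, at coding bases 117 to 177 and so within the stem-loop segment. In SPBC530.02 it had 16, at coding bases 1375 to 1509, and the median over all genes was 21.

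**Figure D4:**
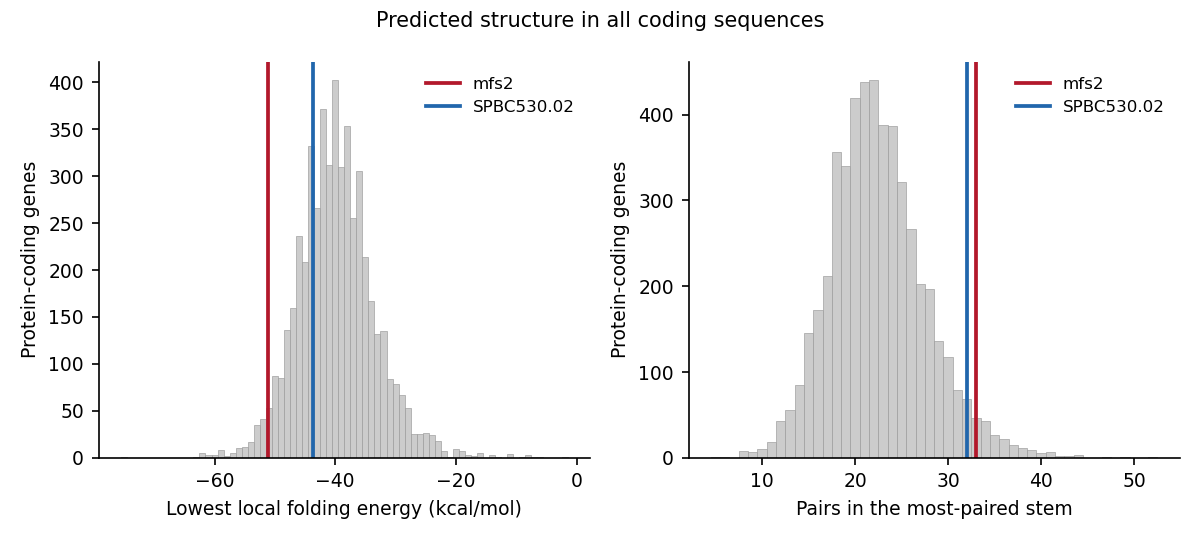
Number of protein-coding genes (y axis, 5113 in all) by lowest local folding energy of the coding sequence in kcal/mol (left) and by pairs in its most-paired stem (right). Vertical lines mark mfs2 (-51.2 kcal/mol, 33 pairs) and SPBC530.02 (-43.6 kcal/mol, 32 pairs); the medians over all genes were -40.1 kcal/mol and 22 pairs.

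The signal for cleavage and polyadenylation, AATAAA on the sense strand (AAUAAA in RNA), occurred once in each gene and in neither coding sequence, which was also the case for 57.3% of all coding sequences. It lay 168 bp after the stop codon of mfs2 and 101 bp after that of SPBC530.02, at distances of 660 bp and 974 bp from the ends of the peaks.

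Upstream of the genes the stress response motif TGACGT, bound by transcription factors of the Atf1 and Pap1 type, was searched on both strands. In the 1000 bp before the reference gene start, mfs2 had 1 match, on the minus strand and 754 bp upstream, and SPBC530.02 had none. At least 1 match was found for 14.9% of protein-coding genes, and at least 2 for 1.98%. The site of mfs2 is shown with its flanks as read on the plus strand, the match in capitals.
mfs2 upstream, I:113225-113264 in ASM294v3: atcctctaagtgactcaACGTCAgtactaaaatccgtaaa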

How the data were processed

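Pac1-TAP ChIP-seq data came from 2 immunoprecipitates and 2 inputs of 1 strain. The 4 libraries of the RNAPII experiment, immunoprecipitates and their inputs, were not analysed here. Per the labels and methods, the authors used Trimmomatic for trimming, HISAT2 with ASM294v2 for mapping and MACS2 for peak calling in each replicate (duplicate reads kept), and merged both replicates with MSPC. The deposited list gives the p-value that the authors computed for each peak, with peak and gene bounds in bp. No value per library was used, so depth and replicate error are unknown. Groups came from the labels.

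Members and lists were chosen with earlier results of these data known. Named genes were the members, genes overlapping their peaks, the 3 genes nearest in peak bounds, bdf2, seb1, listed transporters, relatives in the list and the 3 closest relatives. Listed bounds were used for peaks. Coding sequences came from the ASM294v3 annotation, in which both genes keep the listed 3′ end while their starts differ by 46 and 38 bp; of 167 listed names, 153 matched by name and place, and 144 of these had an identical start or end. Peak bounds in ASM294v2 were set on ASM294v3 coding sequences at the same coordinates; the older sequence was not used here, so every distance between a peak and a coding base or stem-loop rests on this match. Nucleotide alignments (match 2, mismatch -1, gap opening -6) and protein alignments (BLOSUM62) used Biopython 1.88, relatives BLAST+ 2.17.0, and folding RNALfold and RNAfold of ViennaRNA 2.7.2. Codon values used the protein-guided alignment. A stem was a run of nested pairs with at most 3 unpaired bases between successive pairs, a measure chosen after the data were seen. Tested on simulated data, the folding step found 19 of 20 planted hairpins with uninterrupted stems of 30 pairs. A hairpin counted as found if the most-paired stem began within 15 bp of its place. Interrupted stems and energy ranks were not tested in this way. Alternatives were other gene bounds, peak sets, E-values, spans, strands, temperatures and motif windows.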

Additional observations from a re-analysis of the deposited data

How the results depend on the processing

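No paired analysis was possible because both replicates had been merged, with 1 value per peak. Leaving out a replicate was not run for the same reason. A peak start counted from 0 put the first base at 166 in mfs2 and at position -69 in SPBC530.02. Reference gene bounds put the peak at bases 119 to 1233 of mfs2 and at -32 to 791 of SPBC530.02, with covered shares of 56.7% and 41.9%, while the coding sequence alone gave 68.0% and 46.3%. The rank of the covered share depends on the pairs compared, by construction: SPBC530.02 was 3rd from the lowest among peaks with 1 listed gene, mfs2 was 14th and SPBC530.02 8th among pairs with the centre in the gene, and 16th and 15th among peaks with a listed p-value of 0. At that stricter threshold, 5 pairs (of 37) had the centre on the 5′ side of the midpoint and the end before the 3′ end. With the codon alignment, identity was 62.9% under both peaks, 71.2% outside both and 52.9% under the SPBC530.02 peak only (34 bases), in place of 66.7% there.

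The energy rank from the lowest was 88 in mfs2 and 722 in SPBC530.02 at a span of 100 nt. At 200 nt it was 873 in mfs2 and 1415 in SPBC530.02. It was 3231 in mfs2 and 2980 in SPBC530.02 on the opposite strand, and 83 and 642 of 1943 genes with coding sequences of 1000 to 2000 nt. By pairs in the most-paired stem, chosen after seeing the data, SPBC530.02 ranked 199. At 30 °C the stem of mfs2 at the same bases counted 24 pairs and ranked 1767, and the most-paired stem of SPBC530.02 was 1 of 29 pairs inside the peak (rank 538). The upstream motif was at 0 matches in the 500 bp before mfs2. The count of relatives with a peak was 2 at every E-value limit. The cause of these shifts was not tested where it does not follow from the setting.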
